A study of Homo sapiens with 6 samples.

Results

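The subunit genes of RNA polymerases I, II and III were followed through the knockdown of OGT in KGN cells. Members were genes of the expression table whose current symbol starts with POLR1, POLR2 or POLR3 followed by a letter, and 33 of 20036 gene identifiers are described, with 32 distinct symbols. POLR1F was entered under its current name and was formerly called TWISTNB. By textbook assignment, 6 of the 33 encode subunits of Pol I only, 2 are shared by Pol I and Pol III, 11 belong to Pol II only, 5 are shared by all 3 enzymes and 9 belong to Pol III only. No measured value entered this naming rule, although the family was taken up with earlier results of these data known. Of the 33, 28 had a mean level of at least 1 FPKM (fragments scaled to gene length and library size) over the 6 libraries and were tested.

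KGN is an established human line from an ovarian granulosa cell tumour, labelled wild type here. Cells received siOGT1 or siOGT2, small interfering RNAs (siRNAs) against OGT mRNA, or siNC, the siRNA that serves as the control, each with a Lipofectamine reagent, and were harvested 48 hours later. Each siRNA has 2 libraries, 6 in all. The labels do not say whether libraries of a group came from separate cultures, so p-values measure the spread between these libraries, which may be technical. The study concerned OGT, which encodes O-GlcNAc transferase, the enzyme that puts the sugar O-GlcNAc on proteins of the nucleus and cytosol.

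Nuclear transcription is divided among 3 related enzymes. Pol I makes the large ribosomal RNA precursor in the nucleolus, Pol II makes messenger RNAs and many small nuclear RNAs, and Pol III makes transfer RNAs, the 5S ribosomal RNA and other short RNAs. Each has its own pair of large subunits that form the active centre, a protruding stalk that takes part in initiation, and a set of small subunits that all of them share. The carboxy-terminal domain of the largest Pol II subunit, POLR2A, is a known substrate of O-GlcNAc transferase.

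The libraries held between 16756649 and 21416489 reads, as recovered from the FPKM values, and the median tested gene had 765 to 975 reads per library. OGT stood at 13.8 and 12.9 FPKM with siOGT1, 14.3 and 14.7 FPKM with siOGT2, and 22.4 and 23.4 FPKM with siNC. Its log2 fold change was -0.74 with siOGT1 (standard error, SE, 0.0435, adjusted p = 9.3e-06) and -0.63 with siOGT2 (SE 0.0435, adjusted p = 8.88e-06), and its level did not pass between the siRNAs (adjusted p = 0.123). All log2 fold changes are differences of mean log2(FPKM + 1), where the added 1 understates the change of low genes. All adjusted p-values come from limma, two-sided, with Benjamini-Hochberg adjustment over the 10547 genes tested, and "passed" means an adjusted p under 0.05. Of 10 granulosa markers, 5 reached 1 FPKM in every library, among them FOXL2 at 5.32 to 6.25 FPKM and NR5A1 at 18.2 to 20.5 FPKM, while FSHR was listed at 0 throughout. The granulosa markers summed to 38.2 to 40.5 FPKM in the siOGT libraries and 35.3 to 37.0 FPKM in the siNC libraries, and their part in the results was not tested. Summed leukocyte markers lay at 0.0999 to 0.274 FPKM in the siOGT libraries and 0.188 to 0.452 FPKM in the siNC libraries, with LYZ listed at 0. Summed germ cell markers lay at 0.419 to 0.558 FPKM in the siOGT libraries and 0.384 to 0.465 FPKM in the siNC libraries, with DAZL listed at 0. Summed endothelial markers lay at 1.57 to 2.16 FPKM in the siOGT libraries and 2.23 to 2.28 FPKM in the siNC libraries, where TEK was the only one above 1 FPKM.

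Most subunit genes did not pass in any comparison, and the genes called against siNC were not all the same with each siRNA. In the direct test of siOGT1 against siOGT2, 4 members passed (16.6% of all tested genes): POLR1F, POLR3G, POLR3GL and POLR2J. The other members called against siNC did not pass in that test. With siOGT1, 5 of 28 tested members passed, where 17.6% of all tested genes did. POLR1F and POLR3G fell (8.1% of all tested genes passed as lower), and POLR3B, POLR3GL and POLR2D rose (9.51% passed as higher). With siOGT2, 7 of 28 passed, beside 35.5% of all tested genes, and all 7 rose (22.1% passed as higher): POLR2D, POLR3B, POLR2J, POLR2E, POLR2G, POLR3E and POLR2L. For the mean of both siRNAs against siNC, 5 of 28 passed (31.1% of all tested genes). POLR2D, POLR3B and POLR2G were higher (19.4% of all tested genes passed as higher) and POLR1F and POLR3G lower (11.8%). The members' median log2 fold change was 0.017 with siOGT1 and 0.012 with siOGT2, beside 0.032 and 0.045 over all tested genes. The members' share was thus near or below that of all tested genes, and neither count sets the family apart. Both comparisons use the same siNC libraries. In bulk RNA, less RNA per cell and fewer cells of a kind cannot be told apart.

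The calls with siOGT2 depended on the scaling between libraries and on single libraries. With a trimmed-mean scaling of the log ratios, 2 members passed as higher and 3 as lower with siOGT2, in place of 7 and 0. The members added as lower were POLR3G at -0.25 (adjusted p = 0.0276), POLR3K at -0.20 (adjusted p = 0.0431) and POLR2M at -0.11 (adjusted p = 0.0311). Equal sums of FPKM gave 3 higher and 1 lower with siOGT2, and quantile normalization gave 5 and 2. Under a pseudocount of 5, a filter at 5 FPKM, only the groups of the contrast, voom on recovered reads, or without siOGT2 replicate 1, POLR3G was added as the 1 lower call with siOGT2. For the mean of both siRNAs each of these 3 scalings gave 2 higher and 3 lower, in place of 3 and 2. Without siNC replicate 2, only POLR2D of the 7 still passed with siOGT2, while 4 members passed without siOGT2 replicate 1 and 2 without siOGT2 replicate 2. With siOGT1, leaving out siNC replicate 2 left 2 members, POLR1F and POLR3G, and leaving out siNC replicate 1 or siOGT1 replicate 1 left 3. For the mean of both siRNAs, 3 passed without siNC replicate 2. No called member changed direction under any of the 17 alternative settings.

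**Figure D1:**
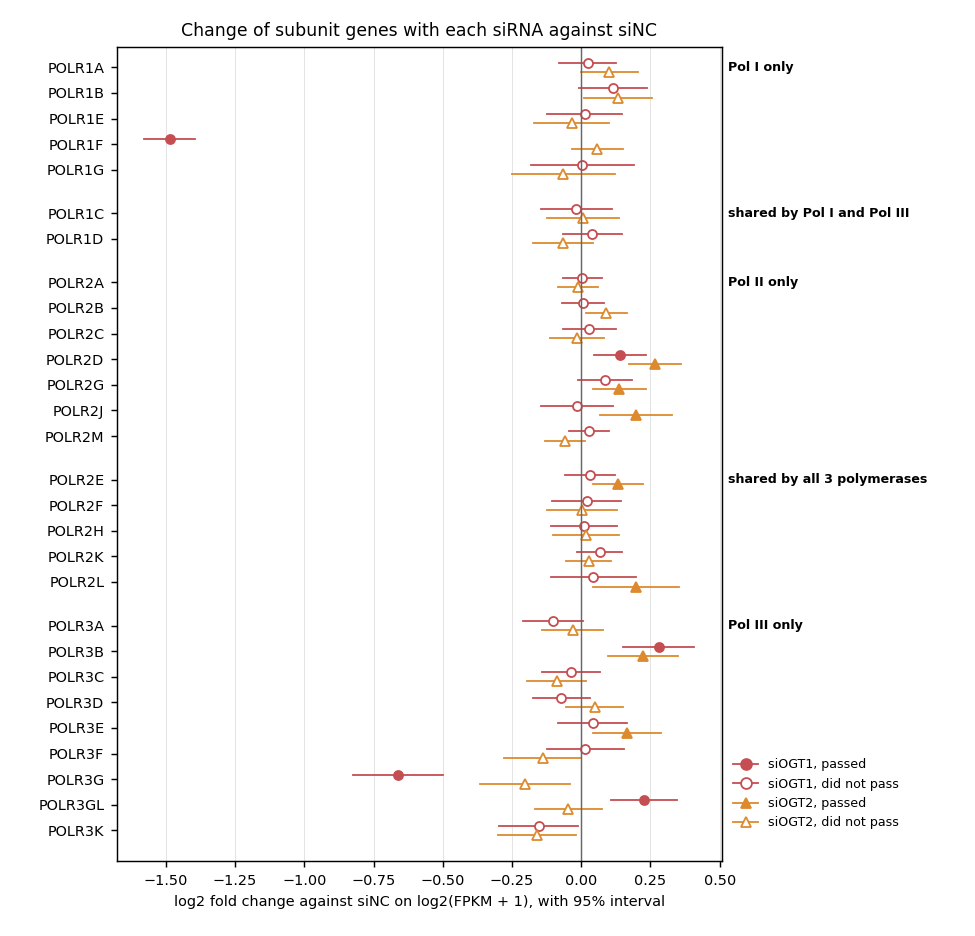
Log2 fold change of the 28 tested subunit genes with siOGT1 (circles) and siOGT2 (triangles) against siNC on the log2(FPKM + 1) scale, with bars for the 95% interval and filled symbols for genes that passed. POLR1F with siOGT1 lies far to the left at -1.49 while its siOGT2 value is 0.06, and apart from POLR3G at -0.66 with siOGT1 the other values lie between -0.20 and 0.28.

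POLR1F carried the largest change of the family, and it was seen with siOGT1 alone. The gene encodes a subunit of the Pol I stalk, the part of the enzyme that meets the initiation factor RRN3. It lies at chr7:19695462-19709087 on the minus strand of GRCh38 (GENCODE release 29), and shares no exonic base with another gene there. POLR1F stood at 15.1 and 13.97 FPKM with siOGT1, 43.8 and 44.7 FPKM with siOGT2, and 43.1 and 41.9 FPKM with siNC. Both siOGT1 libraries lay far below the other 4, which sat within 3 FPKM of each other. The siOGT1 mean was 34.2% of the siNC mean and the siOGT2 mean 104% of it. The log2 fold change was -1.49 with siOGT1 (SE 0.0406, adjusted p = 4.75e-08), which was rank 3 among the falls of all 10547 tested genes. With siOGT2 it was 0.06 (95% interval -0.03 to 0.15, adjusted p = 0.294). In the direct test of siOGT1 against siOGT2 the difference was -1.54 (SE 0.0406, adjusted p = 4.17e-08), rank 2 of all tested genes. The siOGT1 values rested on 1097 and 1181 reads. The siOGT1 value stayed between -1.55 and -1.28 and passed under all 17 alternative settings.

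Between the siRNAs, 4 of 28 members passed, beside 16.6% of all tested genes. POLR1F, POLR3G and POLR2J were lower with siOGT1 than with siOGT2 (8.24% of all tested genes), and POLR3GL was higher (8.35%). The median difference over the members was -0.014, beside -0.007 over all tested genes. Without siOGT1 replicate 1, or without siOGT2 replicate 2, the count was 2, and POLR1F and POLR3G were the members that still passed.

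Because siRNAs can pair with transcripts through a short seed, the transcripts were read for the letters GCTCTTA on the sense strand. That heptamer was picked in an earlier analysis of these same libraries as the one whose holders fell most with siOGT1, so its link with siOGT1 is not independent support. Neither siRNA's sequence was used here, so no seed is assigned to either. Among the 28 tested members, all with a 3′ UTR in GENCODE release 29, 2 hold GCTCTTA in the longest 3′ UTR of a coding transcript: POLR1F with 2 copies and POLR3G with 1. These are the members that fell with siOGT1. The sites are shown with their surroundings as 30 bases of the sense strand, GRCh38, with the heptamer in capitals, and the OGT site from its coding sequence is set below them. The POLR1F sites start at bases 538 and 2347 of the 3′ UTR and lie at chr7:19697764-19697793 and chr7:19695955-19695984, minus strand. The POLR3G site starts at base 507 and lies at chr5:90512631-90512660, plus strand, and the OGT site lies at chrX:71563359-71563388, plus strand.
POLR1F 3′ UTR, first site: tctgaagtcttcacaGCTCTTAaaagccag
POLR1F 3′ UTR, second site: ttttaagcagtttctGCTCTTAagggctta
POLR3G 3′ UTR: cataaacctacctgaGCTCTTAcaagtaca
OGT coding sequence: gatagcagtaacacaGCTCTTAatatgcct

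Across the 10494 tested genes with a 3′ UTR that could be read, 1027 (9.79%) hold GCTCTTA. With siOGT1, 5.9% of genes without a copy passed as lower, 26.6% of the 912 genes with 1 copy and 41.7% of the 115 genes with 2 or more. The median log2 fold changes were 0.037, -0.036 and -0.138 in that order of copies. POLR1F had the largest fall of the 115 genes with 2 or more copies, and POLR3G was rank 31 among the 912 genes with 1 copy. With siOGT2 the medians were 0.046 without a copy, 0.036 with 1 copy and 0.057 with 2 or more, and 13.2%, 15.4% and 18.3% passed as lower. Of 15717 heptamers held by at least 100 genes, GCTCTTA had the lowest mean log2 fold change with siOGT1, against siNC and against siOGT2. It was rank 3123 from the lowest with siOGT2 against siNC. Because GCTCTTA was picked for the fall of its holders with siOGT1 in these libraries, its siOGT1 rank was fixed in advance. The siOGT1 shares and medians by copies are not independent support either. A match is a description of the transcript and not a shown binding site, and its part in the falls of POLR1F and POLR3G was not tested.

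**Figure D2:**
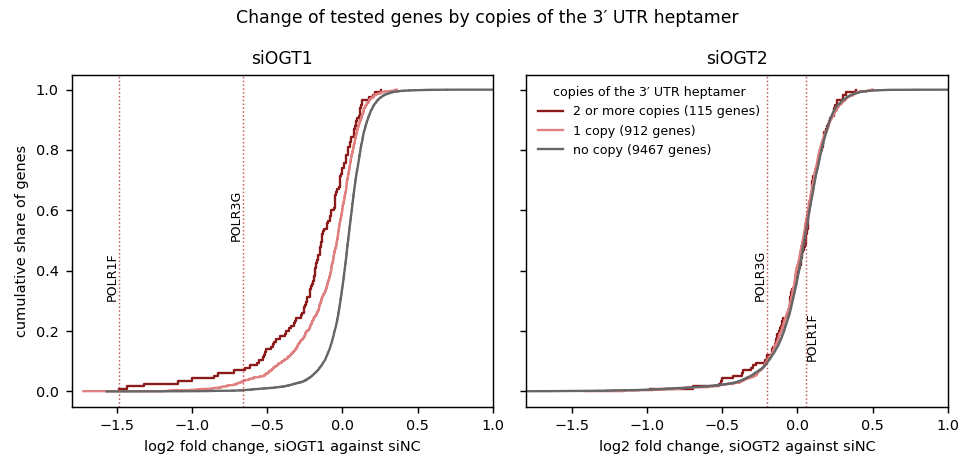
Cumulative share of tested genes against their log2 fold change with siOGT1 (left) and siOGT2 (right) against siNC, split by copies of the heptamer in the 3′ UTR, with dotted lines at POLR1F and POLR3G. With siOGT1 the curve for 2 or more copies lies left of the others, with a median of -0.138 against 0.037 without a copy. With siOGT2 the 3 curves lie nearly on each other. The heptamer was picked on these same libraries for the fall of its holders with siOGT1.

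The fall of POLR1F was not accompanied by the rest of Pol I. POLR1A and POLR1B, its large subunits that form the active centre, POLR1E and POLR1G, which form a pair that aids initiation and elongation, and POLR1H, a small zinc-binding subunit for RNA cleavage, are the other genes of that enzyme alone. POLR1A stood at 7.44 and 7.29 FPKM with siOGT1, 7.62 and 8.05 FPKM with siOGT2, and 7.27 and 7.19 FPKM with siNC. POLR1B stood at 8.23 and 8.76 FPKM with siOGT1, 8.84 and 8.40 FPKM with siOGT2, and 7.42 and 8.13 FPKM with siNC. Neither gene passed in any comparison, and their log2 fold changes against siNC ran from 0.02 to 0.13. The medians over all tested genes were 0.032 with siOGT1 and 0.045 with siOGT2. With voom on recovered reads both passed with siOGT2, POLR1A at 0.11 (adjusted p = 0.0187) and POLR1B at 0.15 (adjusted p = 0.0199). POLR1E, at 7.93 to 9.01 FPKM in all libraries, and POLR1G, at 2.05 to 2.58 FPKM, did not pass either. POLR1G shares 45.1% of its exonic bases with ERCC1 and PPP1R13L on the opposite strand, and no source used here says whether reads were counted by strand. POLR1H lay below the level tested, at 0.487 to 0.7397 FPKM (36 to 53 reads).

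The summed level of the Pol I genes showed the same contrast. Without POLR1F, the other 5 summed to 26.6 and 28.0 FPKM with siOGT1, 27.3 and 27.7 FPKM with siOGT2, and 26.4 and 26.3 FPKM with siNC. POLR1F made up 36.2% and 33.3% of the Pol I sum in the siOGT1 libraries, 61.6% and 61.7% in the siOGT2 libraries, and 62.0% and 61.5% in the siNC libraries. Its FPKM was 2.03 and 1.92 times that of POLR1A with siOGT1, 5.75 and 5.56 times with siOGT2, and 5.92 and 5.83 times with siNC. The gene length behind the FPKM of POLR1A in the deposited table is 19694 bases, where GENCODE release 29 has 13519 exonic bases, so the ratio depends on the annotation used.

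**Figure D3:**
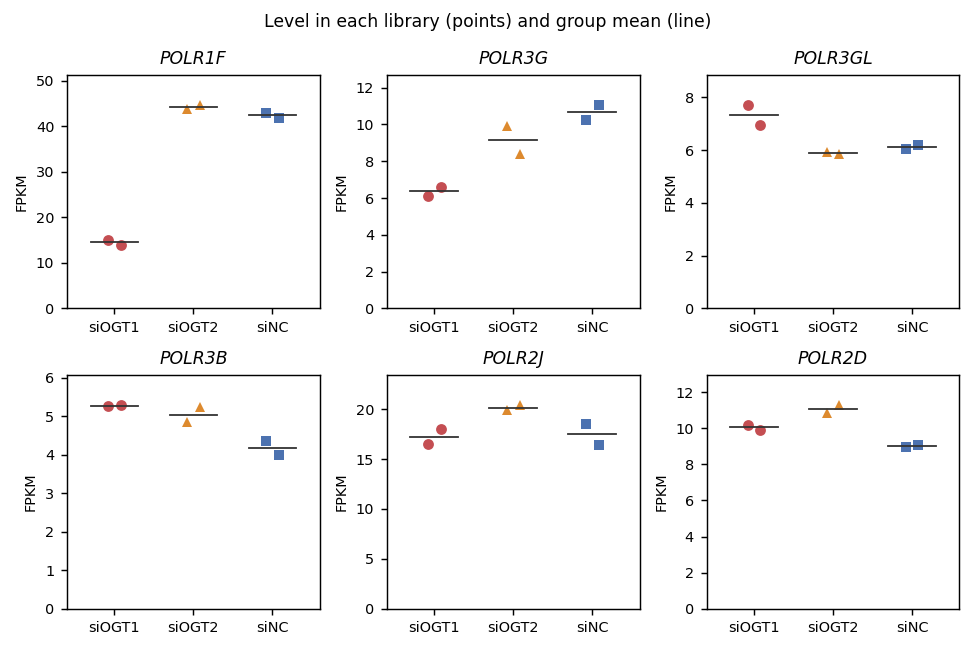
FPKM in each library (points) and the group mean (line) for POLR1F, POLR3G, POLR3GL, POLR3B, POLR2J and POLR2D, on linear axes that start at 0. POLR1F is at 15.1 and 13.97 FPKM with siOGT1 and above 41 FPKM in the other 4 libraries, and POLR3GL is above 6.9 FPKM in both siOGT1 libraries and below 6.2 FPKM in the others.

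The paralogs POLR3G and POLR3GL moved in opposite directions with siOGT1. They encode alternative versions of a subunit in the Pol III initiation subcomplex. In human cells POLR3G is known from undifferentiated and tumour cells, and POLR3GL is found more widely. POLR3G (chr5:90471748-90514553, plus strand) stood at 6.12 and 6.61 FPKM with siOGT1, 9.89 and 8.38 FPKM with siOGT2, and 10.3 and 11.1 FPKM with siNC. The siOGT1 libraries lay lowest and the siNC libraries highest, with no overlap between the 3 groups. The log2 fold change was -0.66 with siOGT1 (SE 0.0719, adjusted p = 0.000283) and -0.20 with siOGT2 (SE 0.0719, adjusted p = 0.0524). The siOGT2 value passed under 8 of the 17 alternative settings, the other scalings among them, and the difference between the siRNAs was -0.46 (adjusted p = 0.00267).

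POLR3GL stood at 7.71 and 6.96 FPKM with siOGT1, 5.91 and 5.87 FPKM with siOGT2, and 6.06 and 6.18 FPKM with siNC. Both siOGT1 libraries were above all other libraries, and the log2 fold change was 0.23 with siOGT1 (SE 0.0535, adjusted p = 0.0188), -0.05 with siOGT2 (adjusted p = 0.526) and 0.27 between the siRNAs (adjusted p = 0.00822). The siOGT1 call was lost without siNC replicate 1 (adjusted p = 0.102), without siNC replicate 2 (0.0737) and without siOGT1 replicate 1 (0.114), and 2 further settings. The call between the siRNAs was lost without siOGT1 replicate 1 (adjusted p = 0.0545) or siOGT2 replicate 2 (0.0549). POLR3GL shares 21.2% of its exonic bases with another annotated coding gene, so part of its reads cannot be assigned for certain. The ratio of POLR3G to POLR3GL in FPKM was 0.793 and 0.9501 with siOGT1, 1.67 and 1.43 with siOGT2, and 1.69 and 1.79 with siNC. POLR3G was therefore the lower of the pair in the siOGT1 libraries and the higher in the other 4. Their sum was 13.8 and 13.6 FPKM with siOGT1, 15.8 and 14.2 FPKM with siOGT2, and 16.3 and 17.2 FPKM with siNC.

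In the active centre of Pol III the second largest subunit rose with both siRNAs. POLR3B stood at 5.28 and 5.29 FPKM with siOGT1, 4.85 and 5.23 FPKM with siOGT2, and 4.35 and 4.004 FPKM with siNC, so all 4 siOGT libraries lay above both siNC libraries. It rose with siOGT1 (log2 fold change 0.28, SE 0.0566, adjusted p = 0.00927) and with siOGT2 (0.22, SE 0.0566, adjusted p = 0.0147). Without siNC replicate 2, both calls were lost, at values of 0.23 with siOGT1 and 0.17 with siOGT2. The siOGT2 call was also lost without siOGT2 replicate 2 (value 0.18) and with no filter on low values (adjusted p = 0.0505). Its partner POLR3A, the largest subunit, stood at 5.65 and 5.60 FPKM with siOGT1, 6.04 and 5.88 FPKM with siOGT2, and 5.93 and 6.29 FPKM with siNC, and did not pass (-0.10 and -0.03). POLR3B and POLR2D were the 2 members that passed with each siRNA in the same direction, beside 12.4% of all tested genes.

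Among the other Pol III subunits, POLR3E rose with siOGT2. POLR3E, one of a pair that acts in initiation and termination, stood at 4.33 and 4.13 FPKM with siOGT1, 4.51 and 4.88 FPKM with siOGT2, and 4.05 and 4.10 FPKM with siNC. Its siOGT2 value of 0.17 (adjusted p = 0.0436) passed under 5 of 16 alternatives, and was lost without siNC replicate 1 (0.148), siNC replicate 2 (0.119), siOGT2 replicate 2 (0.227) or either siOGT1 library (0.0522 and 0.0518). POLR3D, the partner of POLR3E, stood at 15.4 and 15.7 FPKM with siOGT1, 16.7 and 17.2 FPKM with siOGT2, and 17.1 and 15.7 FPKM with siNC, and did not pass.

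POLR3C and POLR3F, which form the initiation subcomplex with POLR3G or POLR3GL, did not pass in any comparison. POLR3C ran from 8.06 to 8.87 FPKM and POLR3F from 3.79 to 4.71 FPKM over the 6 libraries. POLR3K, the small subunit for RNA cleavage and termination, stood at 3.05 and 2.92 FPKM with siOGT1, 3.04 and 2.91 FPKM with siOGT2, and 3.64 and 3.25 FPKM with siNC. All 4 siOGT libraries lay below both siNC libraries, at log2 fold changes of -0.15 and -0.16, and the mean of both siRNAs did not pass (-0.16, adjusted p = 0.0547), although it did under 5 alternatives, the other scalings among them (adjusted p = 0.0289 to 0.0479). Of the 9 genes described of Pol III alone, 3 passed with siOGT1 (2 higher, 1 lower) and 2 with siOGT2 (both higher), beside 17.6% and 35.5% of all tested genes, with medians of -0.036 and -0.047. POLR1C and POLR1D, the pair that starts the assembly of Pol I and Pol III, lay at 3.595 to 3.93 FPKM and 5.62 to 6.33 FPKM, and neither passed.

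**Figure D4:**
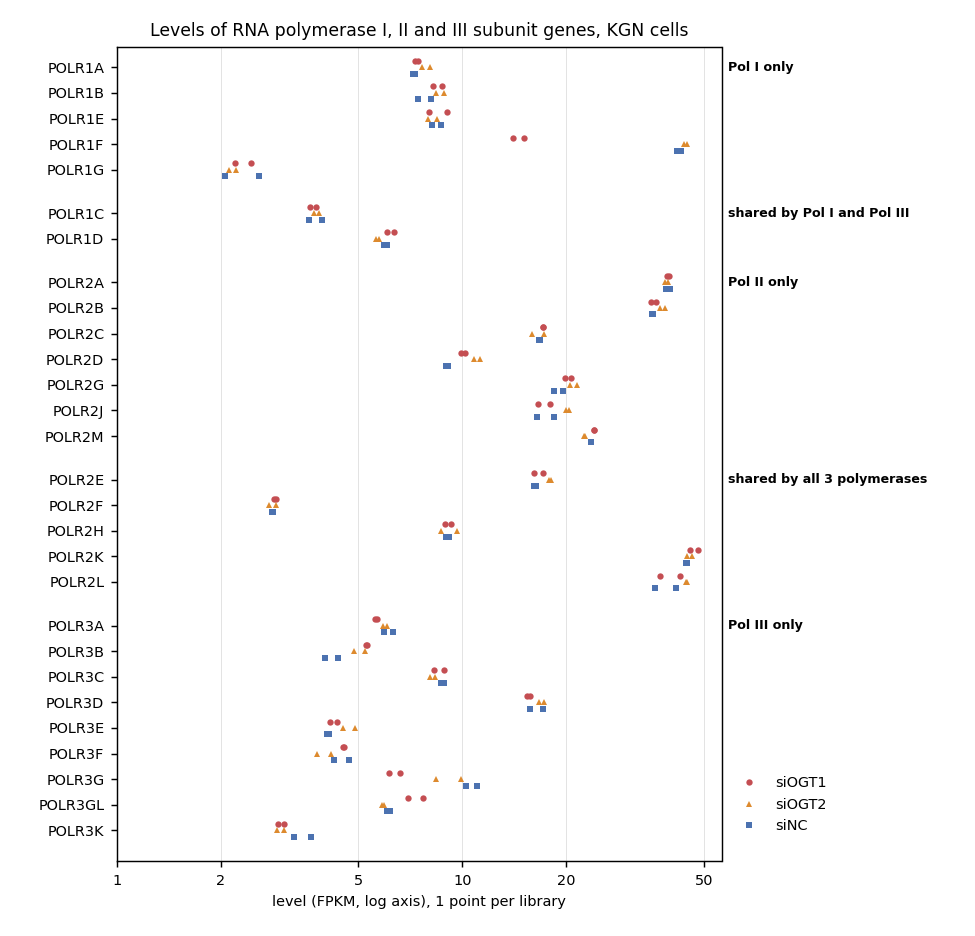
FPKM of the 28 tested subunit genes on a log axis, 1 point per library, for siOGT1 (circles), siOGT2 (triangles) and siNC (squares), ordered by polymerase. Levels span POLR1G at 2.05 FPKM to POLR2K at 48.1 FPKM, and POLR1F is the gene whose siOGT1 points stand far from the others.

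Among the Pol II genes, POLR2A stayed close to its siNC level. POLR2A, the largest subunit, stood at 39.2 and 39.8 FPKM with siOGT1, 38.7 and 39.5 FPKM with siOGT2, and 38.9 and 39.9 FPKM with siNC. The groups overlapped, and the 95% interval of its log2 fold change was -0.07 to 0.07 with siOGT1 and -0.08 to 0.06 with siOGT2. POLR2B, its partner in the active centre, stood at 36.3 and 35.2 FPKM with siOGT1, 37.3 and 38.6 FPKM with siOGT2, and 35.4 and 35.7 FPKM with siNC. Its siOGT2 value of 0.09 did not pass (95% interval 0.02 to 0.17, adjusted p = 0.0603), but did with voom on recovered reads (adjusted p = 0.0323). POLR2C, which seeds assembly with POLR2J, lay at 15.9 to 17.2 FPKM and did not pass. POLR2M, a protein that binds the assembled enzyme, lay at 22.5 to 24.1 FPKM, did not pass, and shares 21.1% of its exonic bases with GCOM1.

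Both stalk genes of Pol II rose with siOGT2, and POLR2D rose with siOGT1 as well. POLR2D stood at 10.2 and 9.93 FPKM with siOGT1, 10.8 and 11.3 FPKM with siOGT2, and 8.97 and 9.07 FPKM with siNC, with no overlap between the 3 groups. Its log2 fold change was 0.26 with siOGT2 (SE 0.0416, adjusted p = 0.00142), which passed under all 17 alternatives. With siOGT1 it was 0.14 (SE 0.0416, adjusted p = 0.0455), and that call was lost under 13 of the 17, among them the loss of siNC replicate 1 (0.175) or siNC replicate 2 (0.133). Between the siRNAs it differed by -0.12, which did not pass (adjusted p = 0.0741). POLR2G, the partner of POLR2D in the stalk, stood at 20.6 and 19.8 FPKM with siOGT1, 21.5 and 20.5 FPKM with siOGT2, and 19.5 and 18.5 FPKM with siNC. It rose by 0.14 with siOGT2 (adjusted p = 0.0324) and by 0.11 over both siRNAs (adjusted p = 0.0459). The siOGT2 call was lost under 7 of the 17 alternatives, equal sums, trimmed-mean scaling and voom on recovered reads among them. Among the 7 were also the fits without siNC replicate 2 or siOGT2 replicate 1, each with a value of 0.10. The mean of both was lost under 10 of 16 alternatives.

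Of the tested members, POLR2D alone held the heptamer TCGGAGA in its 3′ UTR. Outside the 3′ UTR it was also held by POLR1A (2 sites) and POLR1B (1 site) in the coding sequence. POLR2H held it in the 5′ UTR (2 sites), and none of these 3 genes passed in any comparison. This heptamer was also picked on these data, as the one whose holders rose most with both siRNAs, so its link with them is not independent support. The site starts at base 21 of the 3′ UTR, at chr2:127848072-127848101, minus strand, GRCh38, and is printed on the sense strand with the heptamer in capitals.
POLR2D 3′ UTR: aaacatcactgctgcTCGGAGAaaccacat
TCGGAGA was held by 232 of the 10494 genes (2.21%), with a median log2 fold change of 0.083 with siOGT1 and 0.114 with siOGT2, beside 0.031 and 0.044 in genes without it. The median of the difference between the siRNAs was -0.035 with a copy and -0.006 without. Whether the sequence has a part in the rise of POLR2D was not tested.

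POLR2J, the assembly partner of POLR2C, differed between the siRNAs. It stood at 16.5 and 18.0 FPKM with siOGT1, 19.9 and 20.4 FPKM with siOGT2, and 18.5 and 16.5 FPKM with siNC, so the siOGT2 libraries were highest and the other groups overlapped. The log2 fold change was 0.20 with siOGT2 (SE 0.0572, adjusted p = 0.0251), -0.02 with siOGT1 (adjusted p = 0.884) and -0.21 for siOGT1 against siOGT2 (adjusted p = 0.0327). The siOGT2 call was lost under 7 of the 17 alternatives, trimmed-mean scaling and voom on recovered reads among them. Among the 7 were also the fits without siNC replicate 2 (value 0.12), siOGT2 replicate 1 (0.21) or siOGT2 replicate 2 (0.18). The call between the siRNAs was lost under 6 of the 17, voom among them. Among the 6 were also the fits without siOGT1 replicate 1 (-0.15), siOGT2 replicate 1 (-0.23) or siOGT2 replicate 2 (-0.20). POLR2J has near-identical copies on chromosome 7, so the split of reads among them is uncertain. POLR2J2 lay at 0.267 to 0.466 FPKM, and the 2 identifiers of POLR2J3 at 0.358 to 0.513 FPKM and 0.0756 to 0.168 FPKM, all below the level tested. POLR2I, a small subunit for accuracy and RNA cleavage, had 1 to 5 reads per library (0.0478 to 0.243 FPKM) and shares 79.6% of its exonic bases with other genes.

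Of the 5 subunits common to all 3 enzymes, 2 rose with siOGT2, where 22.1% of all tested genes did. POLR2E stood at 16.1 and 17.2 FPKM with siOGT1, 18.0 and 17.8 FPKM with siOGT2, and 16.3 and 16.2 FPKM with siNC, and rose by 0.13 with siOGT2 (adjusted p = 0.0291). POLR2L, a small zinc-binding subunit, stood at 37.4 and 42.7 FPKM with siOGT1, 44.7 and 44.5 FPKM with siOGT2, and 41.5 and 36.2 FPKM with siNC, and rose by 0.20 with siOGT2 (adjusted p = 0.0492). For both genes the siOGT2 libraries were the highest. The POLR2E call was lost under 8 of the 17 alternatives, equal sums (adjusted p = 0.0560) and trimmed-mean scaling (0.123) among them. Among the 8 were also the fits without either siNC library or either siOGT2 library, with values of 0.12 to 0.14. The POLR2L call was lost under 10 of the 17 alternatives, the 3 scalings among them. Among the 10 were also the fits without siNC replicate 2 (value 0.10), siOGT2 replicate 1 (0.19) or siOGT2 replicate 2 (0.20). Of the exonic bases of POLR2L, 22.5% are shared, with CD151 among the genes involved. POLR2F at 2.76 to 2.89 FPKM, POLR2H at 8.68 to 9.67 FPKM and POLR2K at 44.5 to 48.1 FPKM did not pass.

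The medians of the classes rest on 2 to 9 genes each. With siOGT1 the median log2 fold change was 0.013 for Pol I alone, 0.012 for the Pol I and III pair, 0.028 for Pol II alone, 0.031 for the common subunits and -0.036 for Pol III alone. With siOGT2 the medians were 0.058, -0.029, 0.091, 0.027 and -0.047 in the same order, beside 0.045 over all tested genes. With 1 library left out some of these moved or changed sign: Pol III alone with siOGT1 ran from -0.079 to 0.007, Pol I alone with siOGT1 from -0.050 to 0.058, and the common subunits from -0.012 to 0.075 with siOGT1 and from 0.000 to 0.088 with siOGT2. The Pol I and III pair ran from -0.021 to 0.044 with siOGT1 and from -0.062 to 0.003 with siOGT2. Under trimmed-mean scaling the siOGT2 median was 0.042 for Pol II alone and -0.070 for that pair, beside 0.003 over all tested genes. No order of the classes is read from these values. The summed FPKM of the Pol II genes was 164.9 and 164.7 with siOGT1, 167.8 and 171.0 with siOGT2, and 162.7 and 160.8 with siNC. For Pol III alone it was 60.25 and 60.58 with siOGT1, 63.44 and 62.21 with siOGT2, and 64.78 and 63.65 with siNC. The 18 members that passed in none of the 4 comparisons as tested here had log2 fold changes against siNC between -0.16 (POLR3K) and 0.13 (POLR1B).

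In siNC cells the family ran from POLR2K at 44.6 ± 0.146 FPKM (SD, n = 2) through POLR1F at 42.5 ± 0.822, POLR2A at 39.4 ± 0.698, POLR2L at 38.8 ± 3.75 and POLR2B at 35.5 ± 0.192 to POLR1G at 2.315 ± 0.3703 FPKM among the tested members. In this order POLR2L did not differ from POLR1F, POLR2A or POLR2B beyond the spread of the libraries. Among the genes of Pol III alone, POLR3D (16.4 ± 1.02 FPKM) and POLR3G (10.7 ± 0.565 FPKM) were highest. With siOGT1, POLR1F averaged 14.5 ± 0.797 FPKM, below POLR2E at 16.6 ± 0.747. It did not differ from POLR3D at 15.5 ± 0.237 beyond the spread of the libraries. Levels between genes rest on the lengths used by the authors, which differ from GENCODE release 29 for some members, such as POLR3C (12068 against 2793 bases) and POLR3F (6754 against 2928 bases).

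The factors that work with the polymerases are read beside all tested genes, of which 17.6% passed with siOGT1 and 35.5% with siOGT2. Their calls were not followed through the alternative settings. Of 9 Pol I initiation and nucleolar factors, 3 passed with siOGT1 (2 higher, 1 lower) and 5 with siOGT2 (3 higher, 2 lower). NOLC1, a nucleolar phosphoprotein, rose with both siRNAs (0.38 each, adjusted p = 0.000263 with siOGT1 and 0.000168 with siOGT2). UBTF, the factor that covers active ribosomal genes, rose with siOGT1 (0.15, adjusted p = 0.0247) and was at 0.11 with siOGT2 (0.0561). TTF1, which terminates Pol I transcription, fell with siOGT1 (-0.23, adjusted p = 0.00424) and was at -0.08 with siOGT2 (0.162). TAF1A, of the Pol I promoter selectivity factor, fell with siOGT2 (-0.18, adjusted p = 0.0116) and was at -0.11 with siOGT1 (0.113). Between the siRNAs, TTF1 passed (adjusted p = 0.03) and TAF1A did not (0.319). The list's median was 0.011 with siOGT1 and -0.013 with siOGT2.

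Of 29 tested general transcription factors of Pol II, 1 passed with siOGT1 and 7 with siOGT2 (5 higher, 2 lower), with medians of 0.008 and 0.022. GTF2B, which bridges the promoter complex and the polymerase, fell with siOGT1 (-0.16, adjusted p = 0.0405) and with siOGT2 (-0.35, adjusted p = 0.00058). MNAT1, of the CDK-activating kinase in TFIIH, rose with siOGT2 (0.19, adjusted p = 0.00982), as did the TFIID subunits TAF6 (0.22, 0.0198) and TAF12 (0.24, 0.0278). With siOGT1, MNAT1, TAF6 and TAF12 were at 0.14, 0.12 and 0.16 (adjusted p = 0.066, 0.216 and 0.169). None of them passed between the siRNAs, and each passed for the mean of both. Of 27 tested elongation factors, kinases and phosphatases, 4 passed with siOGT1 (2 higher, 2 lower) and 10 with siOGT2 (5 higher, 5 lower), with medians of -0.009 and -0.019. TCEA1, which rescues arrested Pol II, rose with both siRNAs (0.24, adjusted p = 0.00402, and 0.26, adjusted p = 0.00169). RTF1, which acts with the PAF1 complex, fell with siOGT1 (-0.37, adjusted p = 0.000822). The cyclins of the elongation kinase P-TEFb were split: CCNT1 fell with siOGT1 (-0.25, adjusted p = 0.0033) and was at -0.10 with siOGT2 (0.0898), while CCNT2 fell with siOGT2 (-0.37, adjusted p = 0.000199) and was at -0.01 with siOGT1 (0.871). Between the siRNAs, both cyclins passed, CCNT1 lower and CCNT2 higher with siOGT1.

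Of 19 Pol III initiation factors and repressors, 3 passed with siOGT1 (1 higher, 2 lower) and 4 with siOGT2 (all higher). The medians were 0.015 and 0.087. The 2 that passed as lower with siOGT1 were GTF3C3 and POU2F1, and both were also lower with siOGT1 than with siOGT2. GTF3C6, of the factor TFIIIC, rose with siOGT1 (0.25, adjusted p = 0.0486) and with siOGT2 (0.33, adjusted p = 0.00799). GTF3C1, also of TFIIIC, rose with siOGT2 (0.16, adjusted p = 0.0187). SNAPC3 and SNAPC5, of the complex that binds small nuclear RNA promoters, rose with siOGT2 too (0.13 and 0.19, adjusted p = 0.00982 and 0.00592). With siOGT1, GTF3C1, SNAPC3 and SNAPC5 were at 0.08, 0.08 and 0.13 (adjusted p = 0.253, 0.130 and 0.0611). None of them passed between the siRNAs, and each passed for the mean of both. Of 19 genes for assembly and nuclear import of polymerases, limma called 0 with siOGT1 (5 at an unadjusted p under 0.05) and 4 with siOGT2, all higher, with medians of 0.020 and 0.096. GPN1, a GTPase for nuclear import of Pol II, rose with siOGT2 (0.17, adjusted p = 0.028) and was at 0.15 with siOGT1 (0.0714). It passed for the mean of both siRNAs (0.16, adjusted p = 0.0224), as did RPAP2 (0.12, 0.0319) and URI1 (0.11, 0.0346). GPN3 did not pass for that mean (0.12, adjusted p = 0.0894). Of 6 genes for mitochondrial transcription, which uses the separate polymerase POLRMT, limma called 0 with either siRNA (0 and 1 at an unadjusted p under 0.05). POLRMT, TFAM, TFB1M and TFB2M had values for the mean of both siRNAs between -0.04 and 0.06.

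**Figure D5:**
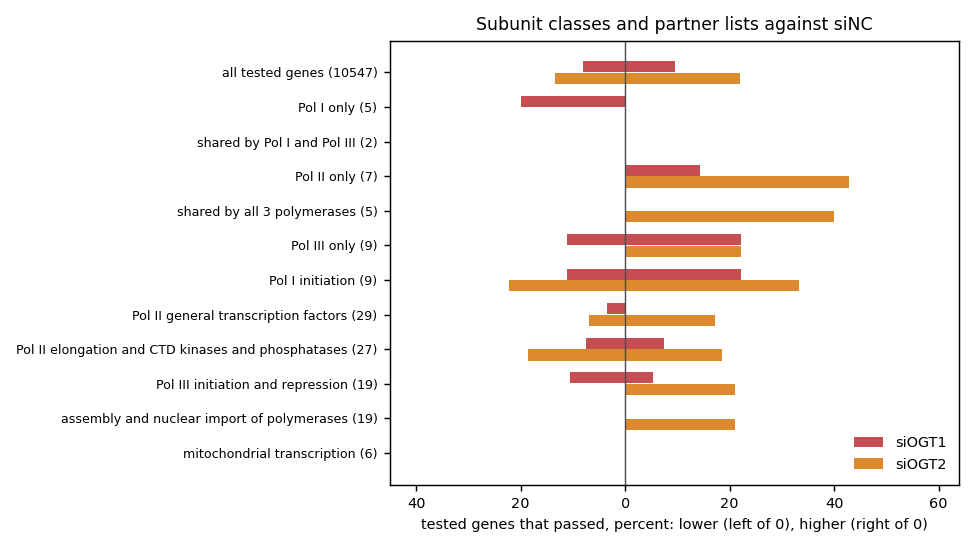
Percent of tested genes that passed as lower (left of 0) or higher (right of 0) with siOGT1 and siOGT2 against siNC, for all tested genes, the 5 classes of subunits and the 6 lists of partner genes, with the number tested in parentheses. Of all tested genes, 8.1% passed as lower and 9.51% as higher with siOGT1, and 13.4% and 22.1% with siOGT2, and bars of the small classes rest on 1 to 3 genes.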

How the data were processed

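RNA of KGN cells was sequenced in 6 libraries, 2 each for siOGT1, siOGT2 and siNC. The authors deposited FPKM values for 20036 Ensembl genes. Per the submitters' processing notes, cutadapt 1.15, HISAT2 and GRCh38 were used, and no source used here gives the counting program, annotation or strand setting. Whole reads were recovered for 100% of genes above 0 (tolerance 0.01 reads) and gave the library totals. The genes whose FPKM averaged 1 or more were tested as log2(FPKM + 1) with moderated linear models in limma 3.58.1 (R 4.3.3, intensity trend on). All 6 libraries entered 1 model, with 3 residual and 6.31 prior degrees of freedom, Benjamini-Hochberg adjustment over all tested genes and a threshold of 0.05. The model was tested on simulated reads with the same dispersion for every gene and changes in siOGT1 only. That is simpler than these data, so it does not check the calls made here. Symbols, coordinates and 3′ UTRs come from gene name tables and GENCODE release 29, and 19418 identifiers were given a symbol.

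The members, partner lists, heptamers and tests were chosen with earlier results of these data known. Members that passed in at least 1 comparison, the active-centre subunits and the paralogs are given by library, the others by range. Of each partner list the 4 genes with the smallest p for the mean of both siRNAs are named, with GTF3C3 and POU2F1 added. An item that the naming rule also covers is not reported here. Alternatives covered the pseudocount (0.1 and 5), the filter (none and 5), 3 scalings, the variance model, the groups in the model, a replicate block, voom on recovered reads, and each library left out. Residual correlations of same-numbered libraries were -0.022, -0.026 and 0.049.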

Additional observations from a re-analysis of the deposited data

Results flagged for a closer look

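A set of 4 subunit genes differed between the siRNAs in the test of the difference itself, siOGT1 minus siOGT2 on log2(FPKM + 1). POLR1F differed by -1.54, at 14.5 FPKM with siOGT1 and 44.3 FPKM with siOGT2. POLR3G differed by -0.46, at 6.37 FPKM with siOGT1 and 9.13 FPKM with siOGT2. POLR3GL differed by 0.27, at 7.34 FPKM with siOGT1 and 5.89 FPKM with siOGT2. POLR2J differed by -0.21, at 17.3 FPKM with siOGT1 and 20.1 FPKM with siOGT2. OGT itself was at 13.3 FPKM with siOGT1 and 14.5 FPKM with siOGT2. Both POLR1F and POLR3G hold the heptamer GCTCTTA in the 3′ UTR, and POLR3GL and POLR2J do not. That heptamer was picked on these same libraries, so its presence is not independent support, and its part in these differences was not tested.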

How the results depend on the processing

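Of the calls on single subunit genes, POLR1F and POLR3G with siOGT1, for the mean of both siRNAs and between the siRNAs, and POLR2D with siOGT2 and for the mean, passed under every alternative run, and no called member reversed. The count of members called was 5 with siOGT1, 7 with siOGT2, 5 for the mean of both and 4 between the siRNAs. With each library left out in turn these ran from 2 to 4, 1 to 6, 3 to 6 and 2 to 5. With no filter on low values the count was 3 with siOGT1 and 1 with siOGT2. With siOGT2 it was 4 with libraries at equal sums of FPKM and 3 without the intensity trend. Voom on recovered reads gave 4, 9, 5 and 3. With the replicate number as a block the counts were 4, 5, 6 and 4. The numbers are not stated to pair libraries, and same-numbered libraries did not deviate together. Where 1 of a pair was left out, the lone library was assumed to vary like the others. A filter at 5 FPKM removed POLR3B and POLR3E, among others, and the mean of both siRNAs has no alternative with fewer groups. The cause of each change was not tested. Members averaging under 1 FPKM, POLR1H and POLR2I among them, were left out by the filter on low values, and with 2 libraries per group a call that missed the threshold does not show that the level stayed the same.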
